A study of Mus musculus with 12 samples.

Results

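S100a8, S100a9, Ltf, Ngp, Camp, Retnlg, Plac8, Ly6c2 and Itgal are transcribed mainly in neutrophils, monocytes and other white blood cells, and their RNA was followed here in mouse cerebellum. These 9 genes were taken by symbol from a table of 57010 genes and were selected on their counts in these same 12 libraries, with the differences between groups known, so those differences are given as a description, with no p-value printed, and calls at the adjusted p threshold are counted only beside the share of all genes called. Bulk RNA sequencing covered 12 libraries of cerebellum, which the series title places in crus 1, a lobule of the lateral hemisphere. Poly(I:C) knockout denotes 4 libraries from Fmr1 knockout mice injected intraperitoneally with poly(I:C), a double-stranded RNA analogue used to provoke an antiviral response. Saline knockout denotes 4 libraries from Fmr1 knockout mice given saline, which the titles call sham. FVB denotes 4 libraries from saline-treated mice of the FVB background strain. Fmr1, the gene silenced in fragile X syndrome, encodes a protein that binds RNA and was targeted in both knockout groups. No FVB group given poly(I:C) was analysed here, so the effect of poly(I:C) in FVB mice, and hence any dependence of that effect on genotype, could not be estimated. The sources used here do not give the knockout allele, age, sex, dose, time after injection, perfusion before dissection or number of animals. Where separate samples are not known to be separate animals, p-values measure only the spread between these samples.

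Neutrophils are short-lived granulocytes that leave the bone marrow ready to kill microbes, and they carry their granule proteins largely premade. The granule genes are transcribed in marrow precursors under C/EBP and PU.1 transcription factors and are turned down as the cells mature, while S100a8 and S100a9 stay high in circulating neutrophils and monocytes. Healthy brain tissue holds few such cells outside its blood vessels and borders. In a bulk library, a lower number of cells of one type and a lower amount of RNA per cell cannot be told apart.

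The libraries held 39.4 to 56.4 M counts in the poly(I:C) knockout, 38.7 to 50.2 M in the saline knockout, against 35.2 to 48.7 M in FVB, and 19166 genes passed the low-count filter, among them all 9 described here. Fmr1 lay at 33.9 to 35.97 CPM (counts-per-million, with library totals adjusted by the trimmed mean of M-values, TMM) in the poly(I:C) knockout, 27.9 to 36.8 CPM in the saline knockout, against 85.5 to 108 CPM in FVB, with no overlap between knockout and FVB libraries. Cerebellar neuron markers summed to 6722 to 7494 CPM over all libraries. Ttr, the transthyretin gene of choroid plexus, exceeded 1000 CPM in 3 libraries, poly(I:C) knockout 2 and 3 and saline knockout 2, and lay at 1.63 to 65.3 CPM in the other 9. Small counts in this table were more often even than odd: 60.3% of values from 1 to 20 were even, and 28744 values equalled 2 where 16951 equalled 1. The sources used here do not say whether both reads of a pair were counted, so a small count may stand for fewer independent fragments, and the floors below cover counting error only.

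The promoters of S100a8, S100a9, Ltf, Ngp and Camp are shown because these genes had the same order of libraries within the saline knockout, described below. They are the 250 bases before the RefSeq start of each gene in GRCm38.p6, read 5′ to 3′ along the gene's strand, from chr3:90668821-90669070 (plus strand) for S100a8, chr3:90695722-90695971 (minus) for S100a9, chr9:111019042-111019291 (plus) for Ltf, chr9:110419558-110419807 (plus) for Ngp and chr9:109849457-109849706 (minus) for Camp. Capitals mark matches, on either strand, to TTNNGCAA, a core of the C/EBP site, and to GAGGAA, the core of the PU.1 site.
S100a8: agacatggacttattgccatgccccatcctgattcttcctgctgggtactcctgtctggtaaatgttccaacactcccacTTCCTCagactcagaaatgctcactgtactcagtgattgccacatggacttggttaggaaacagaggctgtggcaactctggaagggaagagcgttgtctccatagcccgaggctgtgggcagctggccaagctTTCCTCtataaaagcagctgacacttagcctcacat
S100a9: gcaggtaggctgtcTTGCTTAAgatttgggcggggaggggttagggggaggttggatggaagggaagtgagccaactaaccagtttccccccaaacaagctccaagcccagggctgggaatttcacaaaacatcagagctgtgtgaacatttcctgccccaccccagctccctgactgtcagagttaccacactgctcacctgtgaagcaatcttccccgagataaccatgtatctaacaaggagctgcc
Ltf: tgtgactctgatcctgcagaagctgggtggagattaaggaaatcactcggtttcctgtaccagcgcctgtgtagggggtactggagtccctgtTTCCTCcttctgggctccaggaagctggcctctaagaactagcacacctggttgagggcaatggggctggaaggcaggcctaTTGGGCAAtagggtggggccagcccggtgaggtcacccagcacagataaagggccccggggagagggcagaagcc
Ngp: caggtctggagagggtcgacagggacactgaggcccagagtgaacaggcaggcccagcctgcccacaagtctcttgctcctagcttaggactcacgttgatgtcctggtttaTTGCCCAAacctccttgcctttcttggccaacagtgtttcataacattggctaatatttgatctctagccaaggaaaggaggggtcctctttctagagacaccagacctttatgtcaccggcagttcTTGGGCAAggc
Camp: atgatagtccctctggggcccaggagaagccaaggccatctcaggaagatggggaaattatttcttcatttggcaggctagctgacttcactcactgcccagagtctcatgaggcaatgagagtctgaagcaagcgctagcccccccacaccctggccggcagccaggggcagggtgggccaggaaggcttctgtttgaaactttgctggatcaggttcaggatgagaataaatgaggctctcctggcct
The C/EBP core occurred 1 time in the S100a9 and Ltf windows and 2 times in that of Ngp, and the PU.1 core occurred 2 times in the S100a8 window and 1 time in that of Ltf. The Camp window held neither string of letters. Among 32851 mouse promoter windows of the same kind 9.56% held the C/EBP string and 23.3% the PU.1 string. A string match is a description of the letters and says nothing about binding in these samples.

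S100a8 and S100a9 encode the subunits of calprotectin, a calcium- and metal-binding cytosolic protein of neutrophils and monocytes that acts as an alarmin once released. S100a8 had 16, 39, 58 and 23 counts in poly(I:C) knockout 1 to 4, 28, 111, 215 and 73 in saline knockout 1 to 4, and 4, 6, 6 and 7 in FVB 1 to 4. Every saline knockout and every poly(I:C) knockout library lay above every FVB library, and the knockout groups overlapped each other. The level averaged 0.770 ± 0.514 CPM in the poly(I:C) knockout, 2.62 ± 2.11 CPM in the saline knockout, against 0.146 ± 0.0358 CPM in FVB (SD, n = 4 each). S100a9 had 74, 80, 148 and 67 counts in poly(I:C) knockout 1 to 4, 66, 213, 422 and 165 in saline knockout 1 to 4, and 36, 12, 32 and 13 in FVB 1 to 4. Its libraries followed the same arrangement, with FVB lowest throughout. The level averaged 2.05 ± 1.13, 5.29 ± 3.98 and 0.586 ± 0.327 CPM in the poly(I:C) knockout, saline knockout and FVB (SD, n = 4 each).

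On the log2 scale S100a8 was higher by 4.14 (SE 0.712) in the saline knockout against FVB and by 2.36 (SE 0.736) in the poly(I:C) knockout against FVB, while the poly(I:C) knockout differed from the saline knockout by −1.78 (SE 0.582). The corresponding differences of S100a9 were 3.17 (SE 0.643), 1.79 (SE 0.641) and −1.37 (SE 0.573). These 3 comparisons share libraries, so their values are not independent of one another.

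Ltf, Ngp and Camp encode proteins of the secondary granules: lactoferrin, which binds iron, neutrophilic granule protein, and the antimicrobial cathelicidin. Ltf had 6, 10, 41 and 10 counts in poly(I:C) knockout 1 to 4, 18, 94, 195 and 82 in saline knockout 1 to 4, and 2, 3, 10 and 6 in FVB 1 to 4. Ngp had 5, 22, 67 and 40 counts in poly(I:C) knockout 1 to 4, 18, 153, 335 and 56 in saline knockout 1 to 4, and 13, 4, 10 and 6 in FVB 1 to 4. For both genes the saline knockout libraries all lay above the FVB libraries, and the poly(I:C) knockout libraries overlapped both other groups. Camp had 4, 4, 15 and 2 counts in poly(I:C) knockout 1 to 4, 0, 25, 87 and 14 in saline knockout 1 to 4, and 10, 4, 4 and 8 in FVB 1 to 4. Camp alone of the 3 spanned the whole range within the saline knockout, holding both the lowest and the highest of the 12 libraries.

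Mean levels of Ltf were 0.393 ± 0.430, 2.36 ± 1.92 and 0.126 ± 0.0690 CPM in the poly(I:C) knockout, saline knockout and FVB (SD, n = 4 each). Those of Ngp were 0.779 ± 0.684, 3.50 ± 3.69 and 0.211 ± 0.113 CPM, and those of Camp 0.144 ± 0.157, 0.784 ± 0.998 and 0.173 ± 0.0956 CPM. The SD exceeded the mean for Ngp and Camp in the saline knockout and for Ltf and Camp in the poly(I:C) knockout. Against FVB, the saline knockout differed by a log2 fold change of 4.15 (SE 0.884) for Ltf, 4.04 (SE 1.11) for Ngp and 2.19 (SE 1.03) for Camp. The poly(I:C) knockout differed from the saline knockout by −2.63 (SE 0.767) for Ltf, −2.20 (SE 0.948) for Ngp and −2.47 (SE 1.04) for Camp. Set against FVB, the poly(I:C) knockout differed by 1.52 (SE 0.957), 1.85 (SE 1.15) and −0.28 (SE 1.18) for the same 3 genes.

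Retnlg encodes a resistin-like secreted protein of mouse bone marrow and neutrophils. It had 18, 2, 18 and 6 counts in poly(I:C) knockout 1 to 4, 18, 25, 40 and 8 in saline knockout 1 to 4, and 2, 0, 8 and 4 in FVB 1 to 4. All groups overlapped. The mean level was 0.236 ± 0.185 CPM in the poly(I:C) knockout, 0.570 ± 0.361 CPM in the saline knockout, against 0.0821 ± 0.0696 CPM in FVB (SD, n = 4 each), and the log2 fold change was 2.67 (SE 0.752) for saline knockout against FVB, −1.26 (SE 0.649) for poly(I:C) against saline knockout and 1.42 (SE 0.795) for poly(I:C) knockout against FVB.

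**Figure D1:**
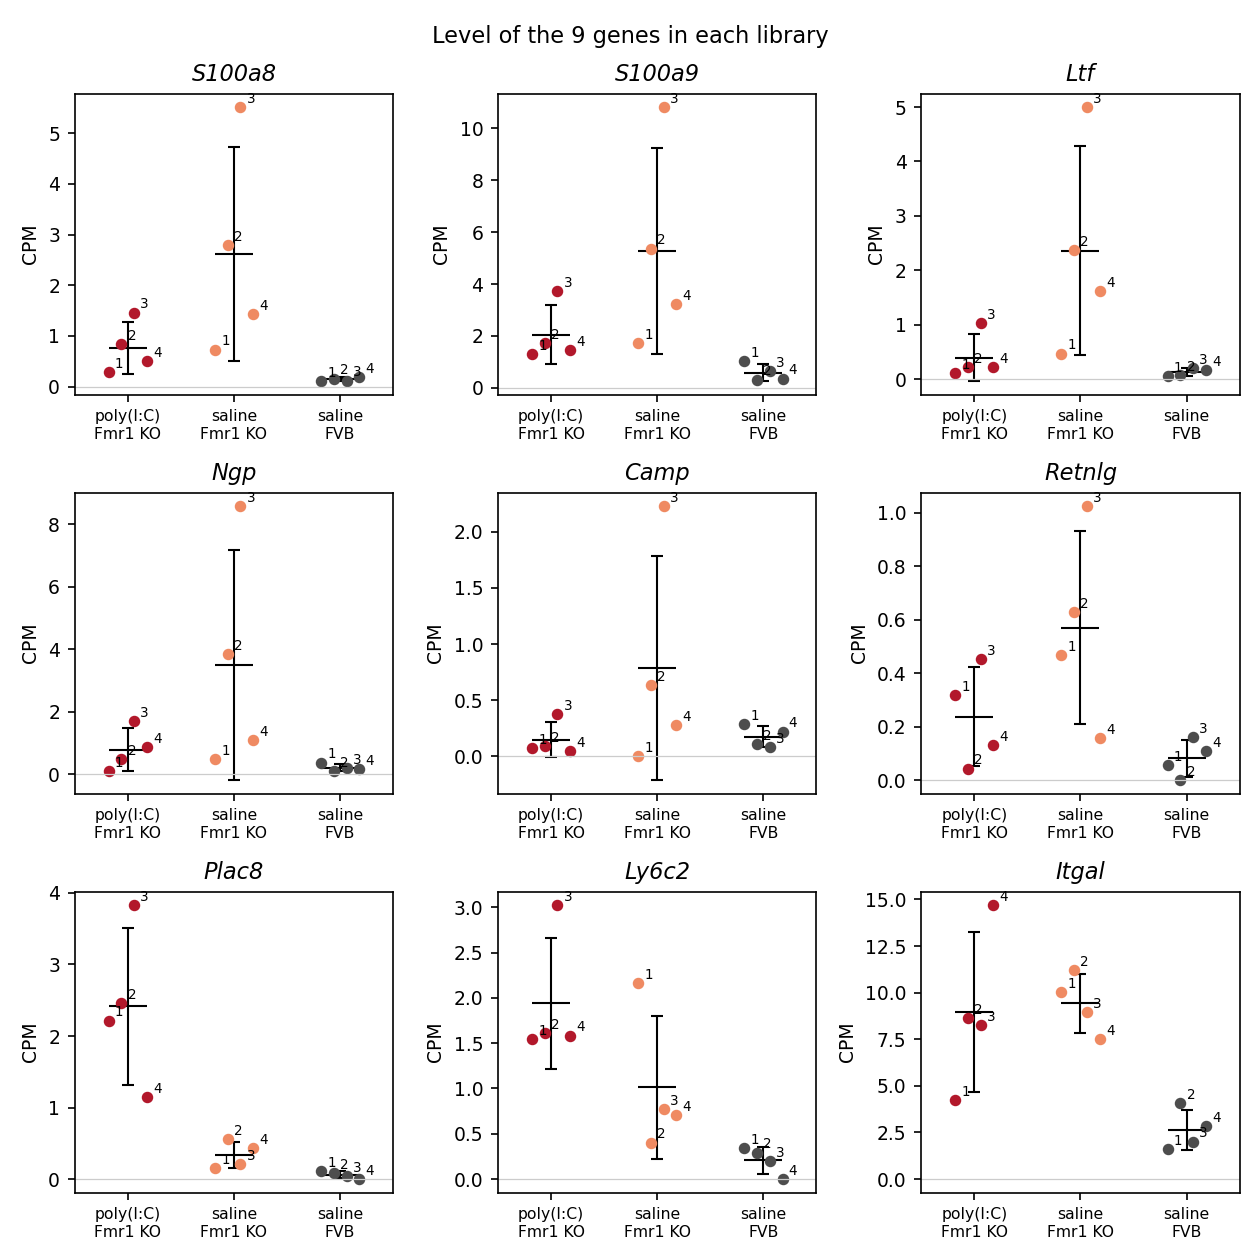
Level (CPM, vertical axis, linear and scaled per panel) of each of the 9 genes in the 4 libraries of the poly(I:C) Fmr1 knockout, saline Fmr1 knockout and saline FVB groups; numbers are replicates, and horizontal lines with bars are mean ± SD. Saline knockout 3 was the highest library for 6 genes, S100a8, S100a9, Ltf, Ngp, Camp and Retnlg, whereas the highest Plac8 and Ly6c2 were in poly(I:C) knockout 3 and the highest Itgal in poly(I:C) knockout 4.

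Within the saline knockout the alarmin and granule genes rested on unequal libraries. S100a8, S100a9, Ltf, Ngp and Camp all had the order replicate 3, 2, 4, 1 (high to low), and Retnlg differed from it only in the place of replicates 4 and 1. The highest library exceeded the lowest 7.55-fold for S100a8, 6.29-fold for S100a9, 10.7-fold for Ltf and 18.3-fold for Ngp. Replicate 3 held 44.0% of the group's Retnlg counts, 48.7% of S100a9, 50.4% of S100a8, 50.1% of Ltf, 59.6% of Ngp and 69.1% of Camp. The 6 genes together reached 2.18, 3.36, 8.74 and 3.21 CPM in poly(I:C) knockout 1 to 4, 3.86, 15.7, 33.2 and 7.82 CPM in saline knockout 1 to 4, against 1.91, 0.769, 1.42 and 1.20 CPM in FVB 1 to 4. By this sum each knockout library exceeded each FVB library, and poly(I:C) knockout 3 exceeded saline knockout 1 and 4.

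**Figure D2:**
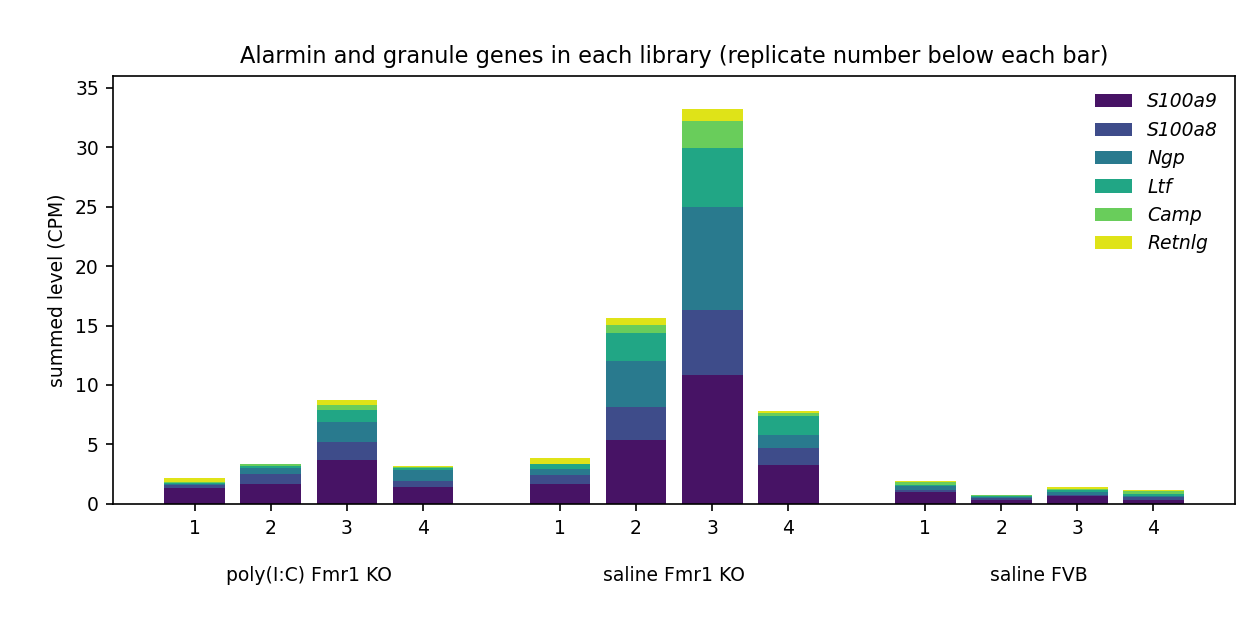
Summed level (CPM, linear axis from 0) of S100a9, S100a8, Ngp, Ltf, Camp and Retnlg in each library, stacked by gene, with the replicate number under each bar and groups from left to right poly(I:C) knockout, saline knockout and FVB. The sum ran from 2.18 to 8.74 CPM in the poly(I:C) knockout, 3.86 to 33.2 CPM in the saline knockout, against 0.769 to 1.91 CPM in FVB, with saline knockout 3 and 2 the tallest bars.

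Without saline knockout 3, the mean of the remaining 3 saline knockout libraries was 1.65 CPM for S100a8, 3.44 for S100a9, 1.48 for Ltf, 1.81 for Ngp, 0.302 for Camp and 0.419 for Retnlg. The log2 fold change of saline knockout against FVB was then 3.48 for S100a8, 2.55 for S100a9, 3.49 for Ltf, 3.09 for Ngp and 2.23 for Retnlg, but 0.83 for Camp. The differences of the poly(I:C) from the saline knockout also shrank without that library, to −1.12 for S100a8, −0.76 for S100a9, −1.96 for Ltf, −1.24 for Ngp, −1.11 for Camp and −0.81 for Retnlg. Saline knockout 3 had 24.96 CPM of Ttr, well under the 4156 CPM of saline knockout 2. Its erythroid markers summed to 336 CPM, against 135, 715, 216 and 235 CPM in FVB 1 to 4. The part of blood or choroid plexus in the levels of this library was not tested. Leaving out the 3 libraries high in Ttr, a choice made after seeing the data, the saline knockout differed from FVB by 4.11 for S100a8, 3.16 for S100a9, 4.15 for Ltf, 4.00 for Ngp, 2.28 for Camp and 2.62 for Retnlg. The same choice put poly(I:C) against saline knockout at −2.71 for S100a8, −1.92 for S100a9, −3.87 for Ltf and −2.85 for Ngp, with 2 poly(I:C) libraries left.

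Plac8 encodes a cysteine-rich protein of myeloid and lymphoid cells. It had 125, 115, 152 and 53 counts in poly(I:C) knockout 1 to 4, 6, 22, 8 and 22 in saline knockout 1 to 4, and 4, 3, 2 and 0 in FVB 1 to 4. No library of any group overlapped another group, with the poly(I:C) knockout highest and FVB lowest. Mean levels were 2.41 ± 1.10 CPM in the poly(I:C) knockout, 0.337 ± 0.188 CPM in the saline knockout, against 0.0585 ± 0.0491 CPM in FVB (SD, n = 4 each). Plac8 was the only 1 of the 9 genes with no overlap between the poly(I:C) and the saline knockout, and its log2 fold change there was 2.81 (SE 0.445). It was 5.33 (SE 0.571) for poly(I:C) knockout against FVB and 2.52 (SE 0.643) for saline knockout against FVB.

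Ly6c2 encodes a Ly-6C surface protein that marks inflammatory monocytes. It had 87, 75, 120 and 73 counts in poly(I:C) knockout 1 to 4, 83, 16, 30 and 36 in saline knockout 1 to 4, and 12, 11, 10 and 0 in FVB 1 to 4. Both knockout groups lay above FVB without overlap, and saline knockout 1 lay within the poly(I:C) range while the other saline knockout libraries lay under it. The level averaged 1.94 ± 0.723 CPM in the poly(I:C) knockout, 1.01 ± 0.785 CPM in the saline knockout, against 0.209 ± 0.151 CPM in FVB (SD, n = 4 each). Log2 fold changes were 0.94 (SE 0.534) for poly(I:C) against saline knockout, 3.20 (SE 0.630) for poly(I:C) knockout against FVB and 2.26 (SE 0.642) for saline knockout against FVB.

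Ly6c1, a near-identical paralog that brain endothelial cells express, was far more abundant. It was at 106, 93.0, 109 and 84.8 CPM in poly(I:C) knockout 1 to 4, 57.2, 41.7, 41.9 and 37.0 CPM in saline knockout 1 to 4, against 42.2, 35.1, 43.9 and 45.8 CPM in FVB 1 to 4. Ly6c2 equalled 1.45 to 2.77% of the Ly6c1 level in the poly(I:C) knockout, 0.966 to 3.78% in the saline knockout, against 0 to 0.831% in FVB. Ly6c1 rose by 1.14 (SE 0.127, edgeR adjusted p = 5.77e-05) in the poly(I:C) against the saline knockout. The sources used here do not say how reads shared by the paralogs were assigned, so the Ly6c2 values are uncertain, and the part of such reads in them was not tested. Saline knockout 1 was highest of its group for both genes.

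Itgal encodes the alpha chain CD11a of the integrin LFA-1, with which leukocytes bind ICAM-1 on endothelium. It had 239, 404, 328 and 677 counts in poly(I:C) knockout 1 to 4, 384, 445, 349 and 382 in saline knockout 1 to 4, and 56, 154, 99 and 104 in FVB 1 to 4. Every knockout library, with or without poly(I:C), lay above every FVB library, although poly(I:C) knockout 1 (4.23 CPM) stood next to FVB 2 (4.08 CPM). Mean levels were 8.96 ± 4.31 CPM in the poly(I:C) knockout, 9.42 ± 1.58 CPM in the saline knockout, against 2.63 ± 1.10 CPM in FVB (SD, n = 4 each). The log2 fold change was 1.84 (SE 0.374) for saline knockout against FVB, 1.77 (SE 0.373) for poly(I:C) knockout against FVB and −0.07 (SE 0.350) between poly(I:C) and saline knockout. Unlike the granule genes, Itgal varied little in the saline knockout, where its highest library exceeded its lowest 1.49-fold.

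Itgb2, the beta chain with which CD11a pairs, averaged 2.90 ± 0.86 CPM in the poly(I:C) knockout, 2.94 ± 0.79 CPM in the saline knockout, against 3.29 ± 0.74 CPM in FVB (SD, n = 4 each). The log2 fold change of Itgb2 was −0.16 (SE 0.236, edgeR adjusted p = 0.867) for saline knockout against FVB and −0.03 (SE 0.236, edgeR adjusted p = 0.975) for poly(I:C) against saline knockout, and no test of the difference between the chains was made. Itgam, which encodes the CD11b chain of another Itgb2 integrin, averaged 2.00 CPM in the poly(I:C) knockout, 2.05 CPM in the saline knockout, against 2.23 CPM in FVB (edgeR adjusted p = 0.903 for saline knockout against FVB).

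**Figure D3:**
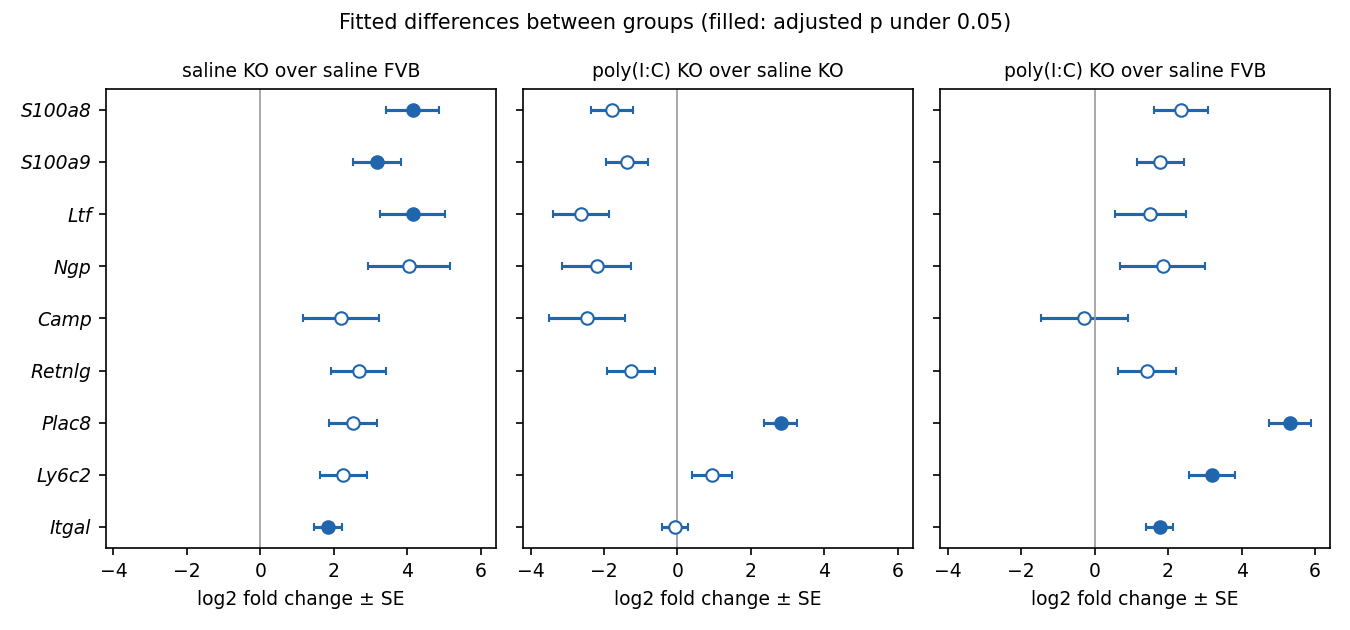
Log2 fold change ± SE (horizontal axis) of the 9 genes for saline knockout over FVB, poly(I:C) knockout over saline knockout and poly(I:C) knockout over FVB; filled points had an adjusted p under 0.05 over 19166 genes. The 6 alarmin and granule genes lay right of 0 in the first panel and left of 0 in the second, from −2.63 to −1.26, while Plac8 lay at 2.81 in the second and 5.33 in the third.

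At an adjusted p under 0.05 by edgeR over all 19166 tested genes, the saline knockout against FVB called 4 of the 9 genes, S100a8, S100a9, Ltf and Itgal, all higher. Of all tested genes 0.814% were called higher in that comparison (1.53% in either direction). Poly(I:C) against saline knockout called 1 of 9, Plac8, where 1.81% of all genes were called higher. Poly(I:C) knockout against FVB called 3 of 9, Plac8, Ly6c2 and Itgal, where 3.81% were called higher. Because the genes were chosen with these comparisons known, nothing is read from these shares. Libraries of the groups did not overlap for 7, 1 and 5 of the 9 genes in the same order of comparisons, all higher, where 3.57%, 4.93% and 6.74% of all tested genes were higher without overlap. The median log2 fold change of the 9 genes was 2.67, −1.37 and 1.79 and that of all tested genes 0.00331, −0.00167 and 0.001.

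The 4 calls of the saline knockout against FVB depended on single libraries, on the low-count filter and on the tool. Without FVB 1, 3 or 4 the fit called 0 of the 9 genes, and without FVB 2, saline knockout 2 or poly(I:C) knockout 2 it called 1. Over all tested genes the fits without FVB 1, 3 and 4 called 176, 156 and 161, against 294 with all libraries. Those without FVB 2, saline knockout 2 and poly(I:C) knockout 2 called 194, 182 and 284. Without saline knockout 4 the fit called 2 of the 9 and without saline knockout 3 it called 3, with 263 and 211 over all genes. With no low-count filter it called S100a8, Retnlg and Plac8, so that the calls of S100a9, Ltf and Itgal were lost. DESeq2 called 8 of the 9, all but Camp. Limma-voom called 1, Itgal, while 2, S100a8 and Ltf, were called without the libraries high in Ttr. Over all genes DESeq2 called 624 of 20053, limma-voom 225 of 19166 and the fit without the libraries high in Ttr 229 of 19814. The fit with no filter called 506 of 36598. In the poly(I:C) against saline knockout comparison DESeq2 and the fit without saline knockout 1 called S100a8 and Ltf as lower, beside Plac8 as higher. Without poly(I:C) knockout 3 Ltf was called as lower beside Plac8. Over all genes those fits called 973, 387 and 347. In the poly(I:C) knockout against FVB, S100a8 and S100a9 were also called by DESeq2, in a fit of those groups only and without saline knockout 3. The counts over all genes were 1905, 1396 and 1355 in these fits. Plac8 in both poly(I:C) comparisons and Ly6c2 in the poly(I:C) knockout against FVB were called under each of the 19 alternatives.

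Compared per kilobase of exon, the order of the genes differed by group. In the poly(I:C) knockout S100a9 led with 3.93 CPM per kb, followed by Plac8 with 1.52, Itgal with 1.36 and S100a8 with 1.11. In the saline knockout S100a9 led with 10.1 CPM per kb, followed by S100a8 with 3.77, Ngp with 2.87 and Itgal with 1.43, and Plac8 was last with 0.212. In FVB S100a9 led with 1.12 CPM per kb and Itgal followed with 0.400, the others lying between 0.0365 for Ltf and 0.228 for Camp.

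The other genes of neutrophils were taken from lists of 51 genes, of which 30 passed the filter. Of these 30, 1 rose in the saline knockout against FVB, 3 rose in the poly(I:C) against the saline knockout (Lcn2, Pglyrp1 and Lrg1), and 3 rose in the poly(I:C) knockout against FVB (Lcn2 and Pglyrp1 among them). Those are 3.33%, 10.0% and 10.0% of the tested genes, beside 0.814%, 1.81% and 3.81% of all genes called higher. In either direction 1.53%, 2.87% and 7.05% of all genes were called. Their median log2 fold changes were 0.26, 0.09 and 0.56 in the same order of comparisons. These medians leave out Ly6g, Mpo, Elane, Cd177 and Cxcr2, which were under the filter. They include genes that other brain cells also express, such as Lcn2 and Csf3r. Without the libraries high in Ttr the single call against FVB in the saline knockout was lost.

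Lcn2, which encodes the iron-scavenging granule protein lipocalin 2 and which brain endothelial cells and astrocytes also make in inflammation, was highest in the poly(I:C) knockout, unlike Ltf. It was at 22.6, 19.4, 71.7 and 49.5 CPM in poly(I:C) knockout 1 to 4, 0.991, 1.44, 4.38 and 1.71 CPM in saline knockout 1 to 4, against 0.512, 0.636, 0.527 and 0.437 CPM in FVB 1 to 4. All poly(I:C) knockout libraries lay above all others. Lcn2 rose by 4.26 on the log2 scale in the poly(I:C) against the saline knockout (SE 0.573, edgeR adjusted p = 0.00331) and by 6.26 in the poly(I:C) knockout against FVB (SE 0.674, edgeR adjusted p = 4.62e-04). In the saline knockout against FVB its difference of 2.00 missed the threshold (edgeR adjusted p = 0.284). Pglyrp1, a bacterial peptidoglycan-binding granule protein, rose by 1.28 (SE 0.23, edgeR adjusted p = 0.0039) in the poly(I:C) against the saline knockout, with 10.6 CPM and 4.36 CPM. Lrg1, a secreted leucine-rich glycoprotein that endothelial cells also make, rose by 2.66 (SE 0.563, edgeR adjusted p = 0.0125) in the same comparison, a call that was lost (adjusted p = 0.113) once the libraries high in Ttr were left out.

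The defining neutrophil markers were near the limit of detection. Ly6g, the antigen that marks mouse neutrophils, had 11 counts over the poly(I:C) knockout, 29 over the saline knockout and 2 over FVB. Mpo, the myeloperoxidase of primary granules, had 2, 26 and 6 counts in the same groups, 20 of the 26 being in saline knockout 3, and Elane, the neutrophil elastase gene, had 0, 4 and 0. A total of 3 counts over a group, the limit that a count of 0 allows, corresponded to 0.0159 CPM in the poly(I:C) knockout and 0.0189 CPM in FVB. Cd177, a surface antigen stored in secondary granules, had 2, 7, 8 and 4 counts in poly(I:C) knockout 1 to 4, 2, 29, 38 and 10 in saline knockout 1 to 4, and 0, 2, 4 and 0 in FVB 1 to 4. Its order within the saline knockout was replicate 3, 2, 4, 1, as for S100a8, but Cd177 was chosen after its values were seen. Other markers had other orders there: 2, 3, 4, 1 for Ly6g, 3, 2, 1, 4 for Mpo and 3, 4, 1, 2 for Cxcr2. Cxcr2, the chemokine receptor that draws neutrophils from the marrow, had 63 counts over the poly(I:C) knockout, 40 over the saline knockout and 14 over FVB, and 44 of the 63 were in poly(I:C) knockout 3. Csf3r, the receptor for granulocyte colony-stimulating factor, which microglia also express, was at 3.04, 2.61 and 2.20 CPM and missed the threshold in each comparison (edgeR adjusted p = 0.767 for saline knockout against FVB, 0.75 for poly(I:C) against saline knockout and 0.301 for poly(I:C) knockout against FVB). The 21 listed genes under the filter summed to 0.620 to 2.67 CPM in the poly(I:C) knockout, 1.10 to 4.15 CPM in the saline knockout, against 0.383 to 0.654 CPM in FVB.

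Clec4e, a C-type lectin receptor of activated myeloid cells, had 4, 18, 10 and 4 counts in poly(I:C) knockout 1 to 4, 6, 2, 4 and 50 in saline knockout 1 to 4, and 0 in each FVB library. Saline knockout 4 thus held 50 of the 62 counts of its group. By mean CPM over the floor of 3 counts over the FVB group, Clec4e was at least 10.5-fold higher in the poly(I:C) knockout than in FVB. The saline knockout was at least 17.1-fold higher than FVB with all 4 libraries and at least 5.46-fold higher without saline knockout 4. It did not pass the low-count filter, so it was not among the 30 tested genes.

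Monocyte genes other than Plac8 and Ly6c2 came from a list of 24, of which 17 were tested. In the poly(I:C) against the saline knockout 2 rose, Ms4a4c and Ms4a6c, which encode tetraspan membrane proteins of monocytes and macrophages. Of all tested genes 1.81% were called higher in that comparison. Ms4a4c rose by 3.53 (SE 0.581, edgeR adjusted p = 0.00136), with 1.54 CPM in the poly(I:C) knockout, 0.128 CPM in the saline knockout, against 0.0470 CPM in FVB. Ms4a6c rose by 1.94 (SE 0.282, edgeR adjusted p = 2.41e-04), with 2.01, 0.522 and 0.975 CPM in these groups. Without the libraries high in Ttr the call of Ms4a4c was lost (edgeR adjusted p = 0.0626) and that of Ms4a6c was kept. In the saline knockout against FVB edgeR called 0 of the 17, beside 1.53% of all tested genes. Of the 17, 2 had an unadjusted p under 0.05, and 0 were called by DESeq2 or by limma-voom. Ccr2, the chemokine receptor of inflammatory monocytes, was at 0.478, 0.367 and 0.320 CPM in the poly(I:C) knockout, saline knockout and FVB and missed the threshold throughout (edgeR adjusted p = 0.929 for saline knockout against FVB and 0.758 for poly(I:C) against saline knockout). The median log2 fold change of the 17 was −0.04, 0.12 and 0.02 in the 3 comparisons.

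Endothelial partners of leukocyte adhesion were measured within a list of 15 ligands and receptors, of which 12 were tested. That list also held chemokines, leukocyte chains such as Itgb2, and receptors for S100a8 and S100a9 proteins. In the poly(I:C) against the saline knockout 3 rose: Icam1, the ligand of LFA-1, Vcam1, a ligand of monocyte integrins, and Selp, the endothelial and platelet P-selectin. Beside these 3 of 12, 1.81% of all tested genes were called higher. Icam1 rose by 1.59 (SE 0.278, edgeR adjusted p = 0.00295), with 6.29 CPM in the poly(I:C) knockout, 2.09 CPM in the saline knockout, against 2.66 CPM in FVB. Vcam1 rose by 0.58 (SE 0.144, edgeR adjusted p = 0.044) and Selp by 3.36 (SE 0.624, edgeR adjusted p = 0.00362). Without the libraries high in Ttr all 3 calls were lost, at an edgeR adjusted p of 0.164 for Icam1 and 0.212 for Selp. That fit kept 2 poly(I:C) and 3 saline knockout libraries and called 215 genes over all, against 550 with all libraries. Over the 19 alternatives the log2 fold change ran from 1.32 to 1.71 for Icam1 and from 2.52 to 3.97 for Selp. Vcam1 was called under 8 of the 19. Sele, the endothelial E-selectin, had 90, 50, 31 and 4 counts in poly(I:C) knockout 1 to 4, none in the saline knockout and 2 in FVB 4, at least 49.5-fold higher in the poly(I:C) than in the saline knockout by mean CPM over a floor of 3 counts over the saline group. Against FVB the poly(I:C) knockout also had higher Cxcl1, a chemokine for Cxcr2 (2.24, edgeR adjusted p = 0.0334), and lower Cxcl12, which retains neutrophils in the marrow (−1.01, edgeR adjusted p = 0.0269). Cxcl1 was called under 12 and Cxcl12 under 13 of the 19 alternatives, and neither without the libraries high in Ttr. Tlr4 and Ager, receptors that S100a8 and S100a9 proteins can bind, missed the threshold in the saline knockout against FVB (edgeR adjusted p = 0.98 for Tlr4 and 0.467 for Ager).

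**Figure D4:**
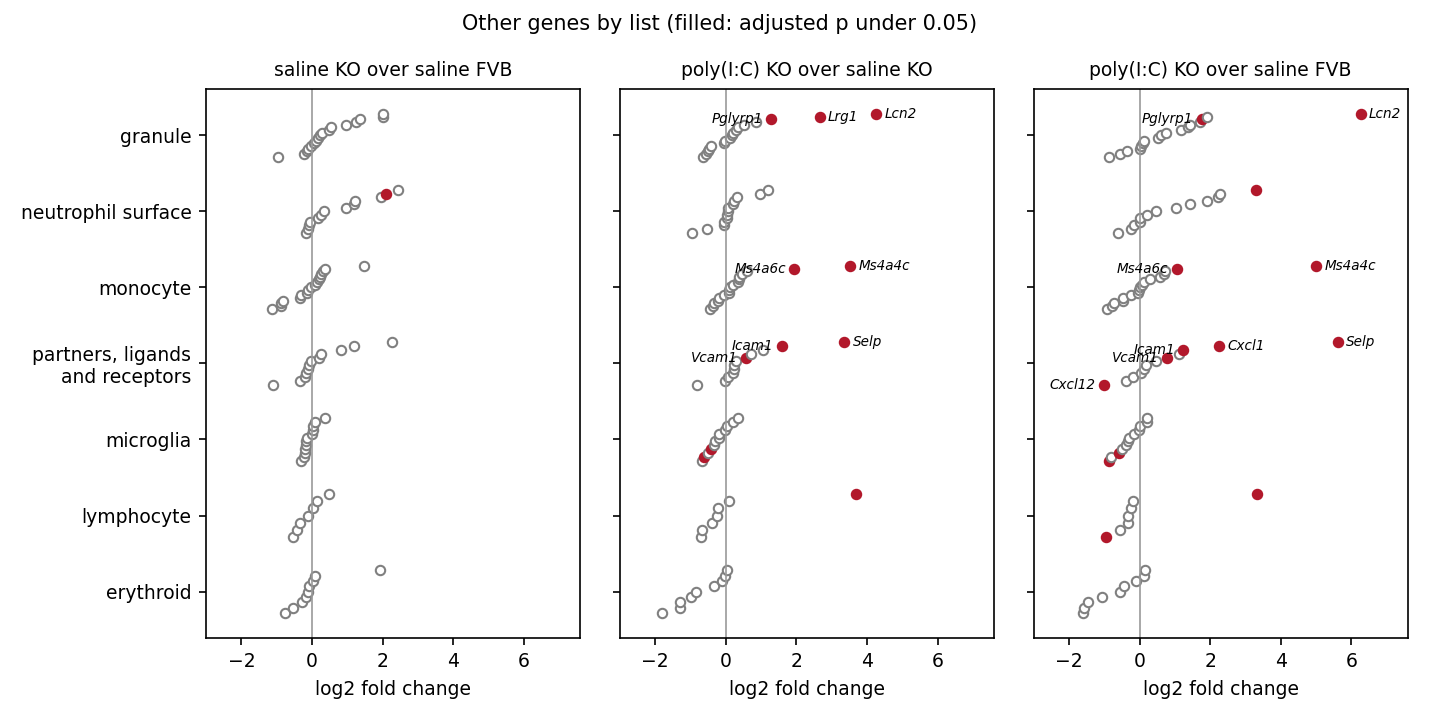
Log2 fold change (horizontal axis) of the tested genes of 7 lists that hold none of the 9 genes, 1 point per gene, for the same 3 comparisons; filled points had an adjusted p under 0.05 by edgeR. In the middle panel Lcn2 (4.26), Ms4a4c (3.53) and Selp (3.36) lay far right of most genes of their lists, and the left panel had 1 filled point.

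Markers of other blood and border cells were summed per library beside these results. Lymphocyte markers lay at 6.16 to 9.70 CPM in the poly(I:C) knockout, 6.41 to 7.92 CPM in the saline knockout, against 7.57 to 11.1 CPM in FVB. Erythroid markers lay at 161 to 211 CPM, 188 to 363 CPM and 135 to 715 CPM, and platelet markers at 2.76 to 3.19 CPM, 2.22 to 4.18 CPM and 2.92 to 4.24 CPM in the same order of groups. For these 3 lists the saline knockout range overlapped the FVB range, and saline knockout 1, lowest of its group in the sum of the 6 alarmin and granule genes, was highest of its group in erythroid markers at 363 CPM. FVB 2 alone set the top of the FVB erythroid range, the other FVB libraries lying at 135 to 235 CPM. Hbb-bs alone lay at 45.3 to 61.9 CPM in the poly(I:C) knockout, 55.9 to 151 CPM in the saline knockout, against 17.1 to 299 CPM in FVB. The lymphocyte sum covered 22 genes, of which 7 were tested, and held changes in both directions. In the poly(I:C) against the saline knockout 1 of the 7 was called, higher, beside 2.87% of all tested genes. Against FVB the poly(I:C) knockout had 1 called higher and 1 lower, beside 7.05%. Microglia markers lay at 123 to 149 CPM, 133 to 161 CPM and 146 to 167 CPM, and meningeal markers at 101 to 150 CPM, 109 to 152 CPM and 134 to 161 CPM. Choroid plexus markers ran from 25.3 to 2855 CPM in the poly(I:C) knockout, 38.5 to 4467 CPM in the saline knockout, against 36.3 to 101 CPM in FVB. Of the libraries highest in the 6 alarmin and granule genes, saline knockout 3 had 51.8 CPM of choroid plexus markers, saline knockout 2 had 4467 CPM and poly(I:C) knockout 3 had 2855 CPM. The part of these markers in the levels of the 9 genes was not tested.

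Likeness between libraries was described after subtracting each group's mean, so that only variation within groups counted. With the mean of the 6 alarmin and granule genes over 12 libraries, Pearson's r was 0.911 for S100a8, 0.917 for S100a9, 0.924 for Ltf, 0.921 for Ngp, 0.926 for Camp and 0.562 for Retnlg, which are themselves part of that mean. It was 0.249 for Plac8, −0.21 for Ly6c2 and 0.000639 for Itgal. Among the 10 other tested genes with the highest r were Dcxr (0.931), AC127693.1 (0.914), Pcsk4 (0.914), Atg16l1 (0.896), Car11 (0.893), 6030458C11Rik (0.889), Slc3a1 (0.885), Klrg2 (0.875) and Zfp707 (0.874). None of these 10 is in the 15 gene lists, and with 19157 genes searched over 12 libraries of shared depth and composition such values carry no test. The median r was 0.285 over the 17 tested secondary and tertiary granule genes, 0.182 over the 13 neutrophil surface genes, 0.421 over the 11 choroid plexus genes and 0.00306 over all 19157.

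The 9 genes lie on several chromosomes. S100a8 and S100a9 are neighbours on chromosome 3, Ltf, Ngp and Camp lie on chromosome 9, and Plac8, Itgal, Ly6c2 and Retnlg lie on chromosomes 5, 7, 15 and 16. Tested genes within 0.5 Mb of a member, by GENCODE M21 order, were counted to see whether neighbours moved alike, 132 distinct genes in all. In the saline knockout against FVB edgeR called 0 of the 132, beside 1.53% of all tested genes, with 10 at an unadjusted p under 0.05, 2 called by DESeq2 and 0 by limma-voom. It called 3 of the 132 in the poly(I:C) against the saline knockout and 6 in the poly(I:C) knockout against FVB, beside 2.87% and 7.05% of all tested genes. Around Ly6c2 3 of 9 neighbours rose in the poly(I:C) against the saline knockout, Ly6c1, Ly6a (2.73, edgeR adjusted p = 4.99e-07) and Ly6e (0.50, edgeR adjusted p = 7.66e-04), all of the same Ly6 family. In the poly(I:C) knockout against FVB Ccrl2 near Ltf rose by 1.13 (edgeR adjusted p = 0.0149), Kif9 near Ngp by 0.81 (edgeR adjusted p = 0.0417), and Qprt near Itgal fell by 1.51 (edgeR adjusted p = 0.0406). Under the 19 alternatives Ccrl2 was called in 16, Kif9 in 9 and Qprt in 9, and the 3 Ly6 genes in all 19.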

How the data were processed

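The deposited table holds raw counts of 57010 Ensembl genes in 12 libraries. Per the submitters' processing notes, reads were handled by Trim Galore, HISAT2 and featureCounts on GRCm39, and neither versions nor settings (strand, pairs, multi-mapping reads) are given. Per the labels' protocols, TRIzol-extracted, DNase-treated RNA went into TruSeq libraries.

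Groups came from the labels. Symbols and exon lengths came from GENCODE M21 by Ensembl identifier, naming 52029 genes with 99.4% of the counts. The promoters are RefSeq sequences of GRCm38.p6, a different build, and only the coordinates of these promoter windows, in that build, are printed. The genes and lists were chosen with earlier results of these data known. Genes were kept by filterByExpr (minimum count 10, total 15), TMM-scaled and fitted with edgeR 4.0.16 in R 4.3.3 (robust quasi-likelihood, 3 group means, 9 residual degrees of freedom). Calls are Benjamini-Hochberg adjusted p under 0.05 over 19166 genes. Fold changes used a prior count of 0.125, and each SE was the size of the log2 fold change divided by the root of its F statistic. Likeness used log2 CPM with a prior count of 2. Fits were also run on simulated counts, drawn independently for each gene. Those counts held no variation shared by genes of a library, so nothing is read from them about the 9 genes. The text names the 9 genes, up to 4 called genes per list and comparison, 8 defining markers, the 10 most alike genes and called neighbours, except some genes that are not reported here; other list members named below the filter or the threshold (Cd177, Clec4e, Sele, Itgam, Tlr4, Ager) and Gdpd3 were chosen after their values were seen.

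Alternatives were DESeq2 1.42.0, limma-voom (limma 3.58.1), RLE scaling, no filter, only the groups compared, a replicate block and omission of each library in turn. A fit lacking the 3 libraries with Ttr above 1000 CPM was added after seeing the data. It kept 2 poly(I:C) knockout, 3 saline knockout and 4 FVB libraries. Over all genes it called 229 for saline knockout against FVB, 215 for poly(I:C) against saline knockout and 556 for poly(I:C) knockout against FVB. With all libraries these were 294, 550 and 1352.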

Additional observations from a re-analysis of the deposited data

Results flagged for a closer look

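Of 27 sets of 4 values (9 genes in 3 groups), 4 had a library whose distance from the nearest other was past Dixon's 95% critical value. The sets share libraries and several of the genes varied together, so they are not independent and no chance rate is set beside this count. All 4 flagged values were from poly(I:C) knockout 3, the highest of its group. They were S100a9 at 3.73 CPM, Ltf at 1.03 CPM, Camp at 0.378 CPM and Ly6c2 at 3.02 CPM. This library is also 1 of the 3 with Ttr above 1000 CPM (2631 CPM). Without it, the mean of the other 3 poly(I:C) knockout libraries was 1.49 CPM for S100a9, 0.179 CPM for Ltf, 0.0667 CPM for Camp and 1.58 CPM for Ly6c2. The unevenness among the saline knockout libraries did not meet this criterion for any gene.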

How the results depend on the processing

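Under the alternatives, 503 of 508 log2 fold changes of the 9 genes moved by less than the SD of log2 CPM between replicates. That SD is a wide limit for genes as uneven between libraries as these, so little is read from it. For the 9 genes, the saline knockout against FVB (4 called) gave 8 by DESeq2, 1 by limma-voom, 2 without the libraries high in Ttr, and 0 to 4 with 1 library left out. Poly(I:C) against saline knockout (1 called) gave 3 by DESeq2, 3 with the replicate block and 1 to 3 with 1 library left out. Poly(I:C) knockout against FVB (3 called) gave 5 by DESeq2, 5 in the fit of those groups only and 2 to 5 with 1 library left out. For the other neutrophil genes, saline knockout against FVB (1 called) gave 3 without the filter, 4 by DESeq2, 0 by limma-voom, 0 without the libraries high in Ttr and 0 to 1 with 1 library left out. Poly(I:C) knockout against FVB (3 called) gave 8 without the filter, 6 by DESeq2, 5 with the replicate block and 3 to 4 with 1 library left out. Without the filter and by DESeq2, 50 of the listed neutrophil genes were fitted, against 30 in the main fit. For monocyte genes, without the libraries high in Ttr poly(I:C) against saline knockout (2 called) gave 1. Poly(I:C) knockout against FVB (2 called) gave 4 without the filter and 4 by DESeq2, with 24 genes fitted against 17 and 3 of the 4 higher. It gave 1 without the libraries high in Ttr and 1 to 2 with 1 library left out. The cause of these differences was not tested. Over all genes, calls by DESeq2 were 624, 973 and 1905 and without the filter 506, 783 and 1626, against 294, 550 and 1352. By limma-voom they were 225, 572 and 1230 and with the replicate block 274, 563 and 1322. Fits of only the groups compared gave 327, 514 and 1396.

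Same-numbered libraries of different groups did not vary together: the correlation of their deviations ran from −0.0987 to 0.145 over 12 pairs, with 2 over 0.1, so the numbers were not taken as pairs. Camp changed sign in 2 alternatives of the poly(I:C) knockout against FVB and Itgal in 3 of the poly(I:C) against the saline knockout. Ltf in the poly(I:C) knockout against FVB was 0.44 without poly(I:C) knockout 3 and 0.28 without the libraries high in Ttr, and Camp was −1.29 and −1.48. S100a8 was 1.40 without those high in Ttr. Depth limited genes such as Camp, Retnlg, Ly6g, Mpo and Elane, whose counts per library were often under 10.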

Other observations

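Gdpd3, a glycerophosphodiester phosphodiesterase gene that lies just beyond the window around Itgal, had 5.32, 0.921, 1.39 and 1.11 CPM in poly(I:C) knockout 1 to 4, 0.704, 0.731, 0.615 and 1.08 CPM in saline knockout 1 to 4, against 24.7, 17.9, 22.7 and 22.7 CPM in FVB 1 to 4. The knockout libraries did not overlap the FVB libraries. The poly(I:C) knockout mean was 2.18 CPM with all 4 libraries and 1.14 CPM without poly(I:C) knockout 1. It fell by 4.79 on the log2 scale in the saline knockout against FVB (SE 0.576, edgeR adjusted p = 0.00279) and by 3.30 in the poly(I:C) knockout against FVB (SE 0.515, edgeR adjusted p = 0.00435), the opposite direction to Itgal. The second call was lost without the libraries high in Ttr (edgeR adjusted p = 0.0588). It was chosen after its values were seen.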
